A study of Homo sapiens with 10 samples.

Results

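The 4 arrays of C4-2 cells that carried an ARRB1-GFP fusion were set against the 6 arrays of C4-2 cells that did not, to ask which genes moved the same way in every ARRB1 array whichever fusion was expressed. C4-2 is an established human prostate cancer cell line, described in the labels as immortalised prostate epithelial cells. The ARRB1 arrays were 2 of cells stably overexpressing a nuclear ARRB1-GFP fusion (nucARRB1) and 2 of cells stably overexpressing the unmodified ARRB1-GFP fusion (wtARRB1). The control arrays were 3 of cells transfected with the GFP empty vector (GFP) and 3 of parental C4-2 cells (parental). All groups were grown in RPMI with serum and received no treatment, and the stable lines were kept in 0.8 mg/ml G418, an antibiotic that parental cells are not stated to have received. The fusions carried a synthetic ARRB1 coding sequence joined to a green fluorescent protein and were brought in by nucleofection and selection. Whether the arrays of a group came from separate clones is not stated, so p-values measure the spread between these arrays. A gene was a member when limma called it at a false discovery rate of 1% and its 4 ARRB1 arrays all lay above, or all lay below, its 6 control arrays. Of 18664 genes, 2212 were members, 978 higher in the ARRB1 arrays and 1234 lower.

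ARRB1 encodes β-arrestin 1, an adaptor that binds activated G protein-coupled receptors at the membrane, ends their signalling and scaffolds kinases, and that also enters the nucleus. Most of the genes described here belong to a few programmes. Before a cell copies its DNA, the MCM helicase is loaded at replication origins by ORC, CDC6 and CDT1 and then activated with CDC45 and the GINS complex, a step whose genes are driven by E2F transcription factors. Cells short of amino acids, or stressed in other ways that raise phosphorylation of the initiation factor eIF2α, translate the transcription factor ATF4, which turns on genes that make, import and charge amino acids. ID proteins are inhibitors of basic helix-loop-helix transcription factors and are known targets of BMP and SMAD signalling.

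The promoters below belong to members of the replication, mitosis and ATF4 lists and show where the letters of a known element stand in them. They are RefSeq sequences of GRCh38.p14 and run from 250 bases before to 50 bases after the annotated gene start, on the strand of the gene. Some members were not considered because of the chromosome they lie on. From each list the 2 remaining members with the largest change among those holding its element were taken. The choice was made after the values were seen, and a member left out may have changed more than those shown. In MCM2 (chr3:127598161-127598460, plus strand) and MCM7 (chr7:100101348-100101647, minus strand), 2 subunits of the replicative helicase, capitals mark TTTNGCGC, an E2F-type sequence.
MCM2: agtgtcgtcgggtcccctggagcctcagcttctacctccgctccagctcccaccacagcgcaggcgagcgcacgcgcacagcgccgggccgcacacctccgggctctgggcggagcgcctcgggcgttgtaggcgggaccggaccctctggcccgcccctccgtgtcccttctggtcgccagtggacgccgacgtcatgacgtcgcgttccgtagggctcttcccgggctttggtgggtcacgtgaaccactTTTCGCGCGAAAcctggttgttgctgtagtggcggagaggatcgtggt
MCM7: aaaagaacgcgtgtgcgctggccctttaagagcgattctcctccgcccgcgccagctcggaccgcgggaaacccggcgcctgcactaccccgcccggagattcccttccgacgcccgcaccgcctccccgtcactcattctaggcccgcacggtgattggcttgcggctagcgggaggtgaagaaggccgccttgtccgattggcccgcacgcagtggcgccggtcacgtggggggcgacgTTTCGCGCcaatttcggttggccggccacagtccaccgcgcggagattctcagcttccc
In CDK1 (chr10:60778081-60778380, plus strand), the kinase that starts mitosis, and CDC20 (chr1:43358731-43359030, plus strand), an activator of the anaphase-promoting complex, capitals mark TTTGAA, the core of the cell cycle genes homology region.
CDK1: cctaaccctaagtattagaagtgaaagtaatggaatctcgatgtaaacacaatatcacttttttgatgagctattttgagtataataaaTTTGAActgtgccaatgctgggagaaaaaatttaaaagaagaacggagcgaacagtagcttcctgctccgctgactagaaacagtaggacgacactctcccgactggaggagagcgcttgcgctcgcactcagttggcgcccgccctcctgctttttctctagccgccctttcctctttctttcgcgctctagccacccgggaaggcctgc
CDC20: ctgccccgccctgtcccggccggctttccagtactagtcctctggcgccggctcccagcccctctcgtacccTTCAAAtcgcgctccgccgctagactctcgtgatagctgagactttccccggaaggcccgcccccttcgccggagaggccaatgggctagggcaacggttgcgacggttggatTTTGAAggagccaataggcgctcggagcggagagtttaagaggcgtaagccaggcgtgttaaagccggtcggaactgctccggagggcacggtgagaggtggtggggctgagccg
In ASNS (chr7:97872359-97872658, minus strand), asparagine synthetase, and ATF3 (chr1:212565157-212565456, plus strand), a stress-induced transcription factor, capitals mark TGATGNAA, the core of the composite element that C/EBP and ATF proteins bind.
ASNS: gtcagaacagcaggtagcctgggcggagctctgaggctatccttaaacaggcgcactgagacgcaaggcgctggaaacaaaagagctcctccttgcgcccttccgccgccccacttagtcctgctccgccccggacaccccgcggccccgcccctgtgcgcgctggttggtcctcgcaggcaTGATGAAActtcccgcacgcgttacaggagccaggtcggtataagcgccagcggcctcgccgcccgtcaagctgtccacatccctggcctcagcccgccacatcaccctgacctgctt
ATF3: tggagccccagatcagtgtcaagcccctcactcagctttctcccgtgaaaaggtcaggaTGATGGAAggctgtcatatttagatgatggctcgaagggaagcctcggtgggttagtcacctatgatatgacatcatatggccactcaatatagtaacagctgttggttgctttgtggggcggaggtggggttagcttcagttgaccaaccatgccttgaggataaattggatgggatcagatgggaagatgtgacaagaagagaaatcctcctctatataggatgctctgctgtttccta
Matches on both strands are marked, and the pair in MCM2 overlap. Whether a marked stretch is the working element of its gene was not tested.

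A promoter was matched for 14782 of the 18664 genes, including 809 higher and 1049 lower members. TTTNGCGC stood in 8 of 20 promoters of the origin licensing list and in 6 of 26 of the replication fork list, against 2.45% of all promoters. It stood in 2.1% of the promoters of higher members and in 5.62% of those of lower members. TTTGAA stood in 19 of 29 promoters of the mitosis list, against 12.4% of all promoters, and in 11.0% of higher and 13.9% of lower members. TGATGNAA stood in 6 of 29 promoters of the ATF4 list, against 2.71% of all promoters, and in 4.33% of higher and 1.24% of lower members. The lists were written with earlier results of these data known. These shares describe letters in a window, with no test, for 3 of the 14 sets of letters that were searched. Among the others TTTCCCGC, another E2F-type sequence, stood in 1.36% of higher and 4.58% of lower members, against 2.16% of all promoters. Some other letters were more frequent in members of both directions. ACGTG stood in 30.2% of higher and 29.7% of lower members against 23.6%, CCACG in 54.0% and 54.3% against 43.7%. CGGAAG stood in 33.5% and 36.7% against 25.5%, whereas GAANNTTC stood in 5.07% and 5.05% against 5.59%.

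Values throughout are log2 intensities that the authors had quantile-normalised, and a change is the mean of the nucARRB1 and wtARRB1 groups minus the mean of the GFP and parental groups. Limma called 1289 genes higher (6.91% of all genes tested) and 1464 lower (7.84%), so that 46.8% of the calls were higher. With median scaling in place of quantile normalisation 691 were higher and 2031 lower, so that 25.4% were higher. Adding the requirement that the arrays do not overlap left the 978 higher members (5.24% of all genes) and the 1234 lower members (6.61%). A further 483 genes did not overlap but were not called, and 541 were called but overlapped. Among the members, 188 of the higher and 223 of the lower ones changed at least 2-fold, and 13 of each at least 4-fold. The gap, which is the distance between the nearest ARRB1 and control arrays, had a median of 0.21 log2 units in higher and in lower members, and it was at least 1 log2 unit in 21 higher and 29 lower members. The median change over all genes was -0.00371. Of 1236 further probes for 826 of the members, 397 were called in the same direction and 3 in the opposite one, and of the 453 with a mean above 7, 329 were called in the same direction. The 3 opposite probes belonged to UQCR10, a complex III subunit (2 probes), and FUT4, a fucosyltransferase, so the direction of these 2 genes is uncertain.

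Arrays of a pool were not equally far from the other pool. On a scale where 0 is the mean of the control groups and 1 the mean of the ARRB1 groups, the median position over lower members was 1.17 in nucARRB1 replicate 1 and between 0.909 and 0.968 in the other ARRB1 arrays. It was 0.201 in parental replicate 1, against -0.11 to 0.0618 in the other control arrays. Parental replicate 1 was the control array nearest to the ARRB1 arrays for 518 of 978 higher and 610 of 1234 lower members, and wtARRB1 replicate 2 was the nearest ARRB1 array for 323 and 477. Without any 1 array taken singly, 1691 of the 2212 members (76.4%) kept the call. Prostate luminal keratins were high in all arrays, KRT8 averaging 9.03 and 8.78 and KRT18 12.16 and 12.26 in ARRB1 and control arrays, and the prostate-specific antigen gene KLK3 was near the array median at 6.68 and 6.55. Of 10 measured luminal markers limma called 3 higher and none lower (median scaling: 1 and 0), with a median change of 0.35. Those 3 were TMPRSS2, a luminal protease (1.09), STEAP2, a metalloreductase (0.76), and FOLH1, the prostate-specific membrane antigen (0.65), which overlapped and lost its call without wtARRB1 replicate 1 or GFP replicate 2. The mean over 8 basal markers ran from 6.25 to 6.29 in ARRB1 arrays and from 6.26 to 6.31 in control arrays, with 0 of 8 called. Of 15 mesenchymal and fibroblast markers 0 were called, of 13 endothelial and blood markers 1 was (VWF, the clotting factor carrier, by 0.53, adjusted p = 0.000445, limma), and of 12 neuroendocrine markers 2 were higher. Those 2 were CALCA, the calcitonin gene (1.10), and DDC, an amine-forming decarboxylase (0.54), whose arrays overlapped. DDC lost its call when any array other than nucARRB1 replicate 2 and parental replicate 2 was left out and with median scaling, and CALCA lost it with an intensity trend and robust prior in limma (adjusted p = 0.0254).

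ARRB1 itself was read by 4 probes. The brightest gave 8.30 and 7.71 in nucARRB1, 7.72 and 7.65 in wtARRB1, 8.13, 8.59 and 8.62 in GFP and 8.28, 8.48 and 8.44 in parental arrays. It was called lower, by 0.58 (SE 0.118, adjusted p = 0.00253, limma), but nucARRB1 replicate 1 lay inside the control range, so ARRB1 was no member. The call was lost when 1 of 4 arrays was left out (nucARRB1 replicate 2, wtARRB1 replicate 2, GFP replicate 2 or GFP replicate 3), with adjusted p up to 0.0122. A second probe was lower in all 4 ARRB1 arrays, at 6.77 to 7.05 against 7.13 to 7.43, and its change of -0.34 missed the threshold (adjusted p = 0.0118). The other 2 probes changed by -0.18 and -0.03. Whether any of these probes reads the synthetic coding sequence of the fusions was not tested, so they do not check the labels. Of 13 measured arrestins and receptor kinases, the other call was GRK6, a kinase that phosphorylates active receptors, which fell by 0.53 (adjusted p = 0.000543).

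S100P, a calcium-binding protein, had the largest rise. It read 11.74 and 12.32 in nucARRB1 and 13.07 and 13.18 in wtARRB1 arrays, against 7.47, 7.83 and 7.62 in GFP and 10.87, 6.62 and 6.74 in parental arrays. All ARRB1 arrays were above all controls, but parental replicate 1 lay nearer to them than to the other parental arrays. The change of 4.72 (26.3-fold, SE 0.563, adjusted p = 1.98e-05, limma) was 5.42 without that array. It lost the call with an intensity trend and robust prior in limma (adjusted p = 0.0195).

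PRSS1, a trypsinogen, read 10.77 and 10.61 in nucARRB1 and 10.56 and 9.66 in wtARRB1 arrays, against 7.48, 7.67 and 7.80 in GFP and 7.75, 6.55 and 6.30 in parental arrays. Its gap of 1.86 log2 units was the widest of the higher members, and it rose 8.84-fold (SE 0.22 on the log2 scale, adjusted p = 1.27e-07). Trypsinogen genes are close in sequence, and whether the probe also reads a paralogue was not tested. SERPINA3, a secreted protease inhibitor, was between 8.54 and 9.16 in ARRB1 arrays, against 6.10 to 6.48 in control arrays other than parental replicate 1, which was at 7.33. It rose 5.66-fold (adjusted p = 2.05e-07). TFF3, a secreted trefoil peptide, was between 9.35 and 10.80 against 7.15 to 8.49 and rose 4.30-fold. CD55, which protects cells from complement, read 8.71 and 8.96 in nucARRB1 and 8.65 and 9.03 in wtARRB1 arrays, against 6.63, 6.63 and 7.02 in GFP and 7.20, 6.72 and 6.70 in parental arrays. Its ARRB1 arrays stood 1.45 log2 units clear of the controls (4.06-fold, adjusted p = 2.53e-08). LAMP3, a lysosomal membrane protein, spread most among the ARRB1 arrays of the 12 largest rises, at 7.48 and 9.74 in nucARRB1 and 8.99 and 7.496 in wtARRB1, against 5.96 to 6.39 in controls. LAMP3 lost its call with an intensity trend and robust prior (adjusted p = 0.0356, limma). NIBAN1, a stress-induced protein, was between 10.10 and 11.13 against 7.82 to 9.14 (4.90-fold).

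**Figure D1:**
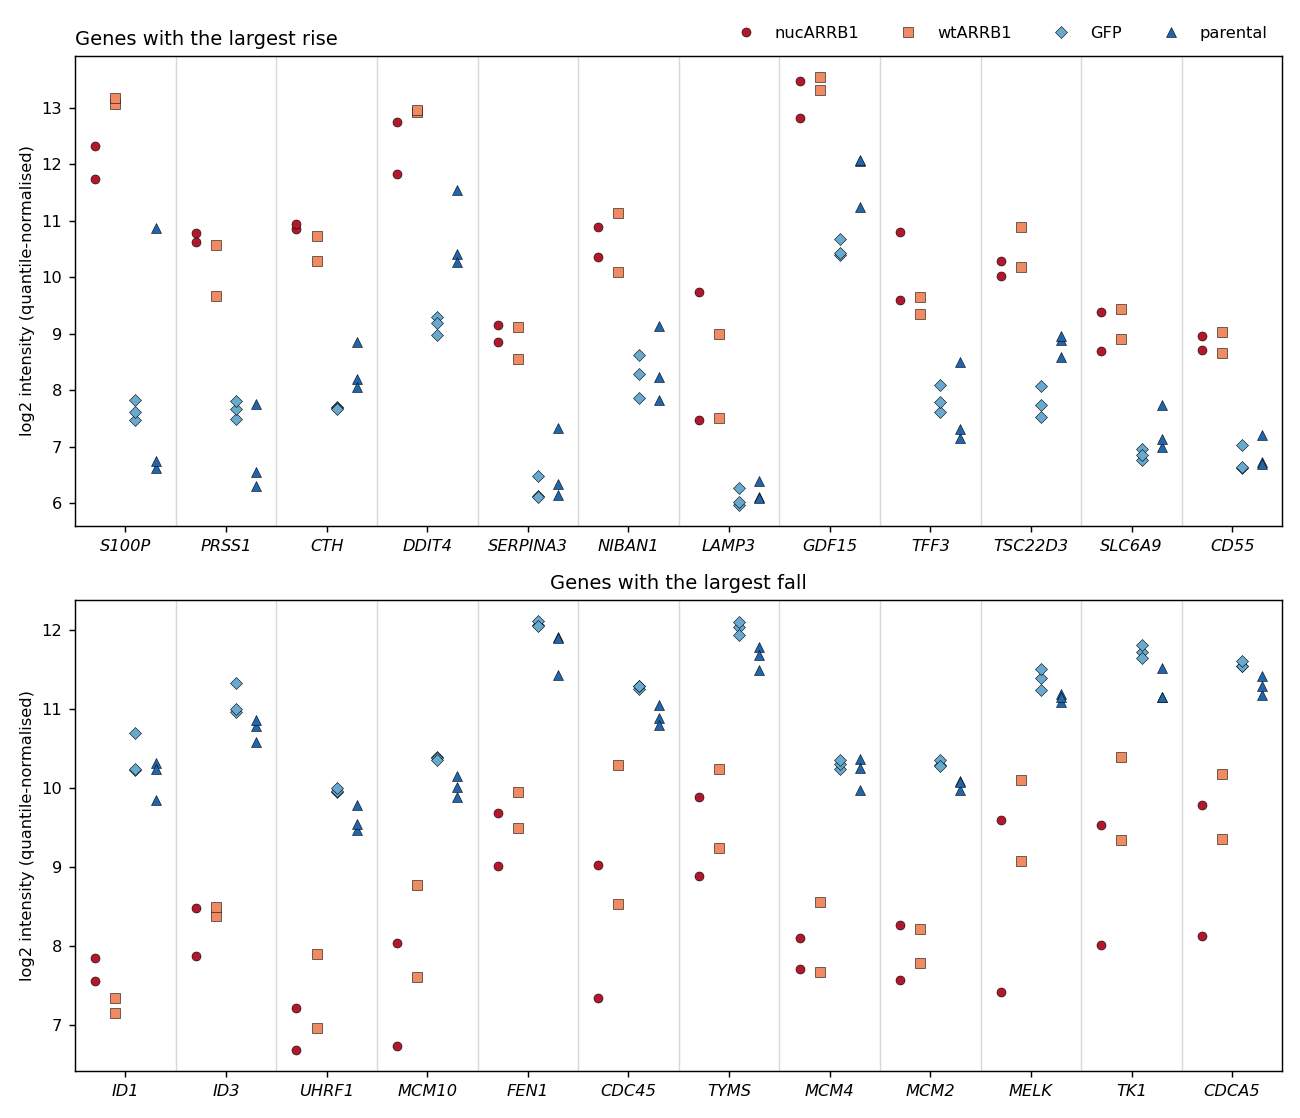
Log2 intensity (y axis, quantile-normalised by the authors) of the 12 members with the largest rise (top) and the 12 with the largest fall (bottom), 1 point per array, in the order nucARRB1 (n = 2), wtARRB1 (n = 2), GFP (n = 3) and parental (n = 3). No ARRB1 array overlaps a control array for any of these genes; parental replicate 1, at 10.87 for S100P, is the control point nearest to the ARRB1 arrays there.

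Genes of the ATF4 amino acid response rose together. Their list, like the other gene lists, was written with earlier results of these data known, so its counts are descriptions. Of 36 measured genes of that list, limma called 30 higher and none lower (median scaling: 29 and 1), 27 of them without overlap, and the median change was 1.00, against -0.00371 over all genes. CTH, which makes cysteine from cystathionine, read 10.86 and 10.95 in nucARRB1 and 10.29 and 10.73 in wtARRB1 arrays, against 7.71, 7.69 and 7.67 in GFP and 8.86, 8.19 and 8.06 in parental arrays. Its arrays were 1.43 log2 units apart and it rose 6.41-fold (SE 0.131 on the log2 scale, adjusted p = 3.52e-09, limma). DDIT4, an inhibitor of mTORC1, read 11.83 and 12.76 in nucARRB1 and 12.93 and 12.96 in wtARRB1 arrays, against 9.30, 8.98 and 9.19 in GFP and 11.54, 10.40 and 10.27 in parental arrays. The parental arrays were the higher of its controls, so that its change was 3.47 against GFP alone and 1.88 against parental alone. GDF15, a stress-induced cytokine, was between 12.81 and 13.54 in ARRB1 arrays, 10.40 to 10.67 in GFP and 11.24 to 12.07 in parental arrays (4.42-fold, adjusted p = 1.7e-07).

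ASNS, named for its promoter, read 13.76 and 14.04 in nucARRB1 and 14.18 and 14.28 in wtARRB1 arrays, against 11.75, 11.53 and 11.70 in GFP and 13.49, 12.15 and 11.99 in parental arrays (1.97, adjusted p = 5.65e-06). ATF3 was between 9.90 and 10.92 in ARRB1 arrays, with both nucARRB1 arrays above both wtARRB1 arrays, against 8.52 to 8.87 in controls (1.67, adjusted p = 7.59e-09). FGF21, a metabolic hormone, was called (1.37, adjusted p = 0.0016) although nucARRB1 replicate 1, at 6.20, lay at the level of the controls, which ran from 6.16 to 6.59. The other ARRB1 arrays had 8.28, 7.95 and 8.57, and the call ended without wtARRB1 replicate 2. PCK2, mitochondrial phosphoenolpyruvate carboxykinase, rose by 1.92 with a gap of 0.054, because parental replicate 1, at 11.68, almost reached nucARRB1 replicate 1, at 11.74. PCK2 also lost its call with an intensity trend and robust prior (adjusted p = 0.0118, limma). The mean of the list was 0.37 above the control mean in parental replicate 1, against -0.18 to 0.02 in the other control arrays, and 0.80 to 1.26 above it in the ARRB1 arrays.

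Genes around this programme were split. Of 21 amino acid transporters 8 were higher and 3 lower. SLC6A9, a glycine transporter, read 8.68 and 9.39 in nucARRB1 and 9.44 and 8.90 in wtARRB1 arrays, against 6.75, 6.95 and 6.86 in GFP and 7.74, 6.98 and 7.13 in parental arrays (4.10-fold, adjusted p = 2.51e-07). SLC3A2 and SLC7A11, which together form the cystine importer, rose by 1.19 and 1.09, and SLC1A3, a glutamate transporter, fell by 0.64, with overlap. Of 19 cytosolic aminoacyl-tRNA synthetases 8 were higher and 3 lower (4 and 5 with median scaling), led by SARS1 (1.27), GARS1 (0.95, with overlap) and WARS1 (0.92) among those that rose and VARS1 (-0.75), FARSA (-0.74) and QARS1 (-0.39) among those that fell. QARS1 lost its call without nucARRB1 replicate 1, either wtARRB1 array, GFP replicate 3 or parental replicate 3 (adjusted p up to 0.0269, limma), and VARS1 lost it with the mean of its probes (adjusted p = 0.118). Of 17 enzymes of serine, glycine and folate use 6 were higher and 2 lower. PSAT1 and PSPH, which complete serine synthesis, rose by 1.66 and 1.23, and MTHFD2, the mitochondrial folate dehydrogenase, rose by 1.04. SHMT1 and MTHFD1, cytosolic enzymes of folate use, fell by 0.92 and 0.79. Of 20 transsulfuration and glutathione genes 4 were higher and 3 lower. CHAC1, which degrades glutathione, was between 6.59 and 7.40 against 6.01 to 6.38 (0.84).

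Other higher members included stress and autophagy genes. DNAJB9, a chaperone cofactor of the endoplasmic reticulum (ER), read 11.71 and 11.54 in nucARRB1 and 11.67 and 11.55 in wtARRB1 arrays, against 9.23, 9.80 and 9.75 in GFP and 9.79, 9.67 and 9.42 in parental arrays. The 4 ARRB1 arrays lay close together and 1.74 log2 units above the nearest control (4.02-fold, adjusted p = 1.26e-08, limma). The ER chaperone list did not move with it. Of its 19 genes 2 were higher, DNAJB9 and the transcription factor XBP1 (0.75, not called without wtARRB1 replicate 1), and 4 were lower, led by SDF2L1 (-0.84), MANF (-0.82) and CRELD2 (-0.71). CCPG1, a receptor for autophagy of the ER, rose by 1.77 with a gap of 1.29. MAP1LC3B, an autophagosome coat protein, was between 9.90 and 10.81 against 8.28 to 8.81 (1.83, adjusted p = 1.51e-07), its relative GABARAPL1 rose by 0.96 and ATG7, which activates both, rose by 0.67. Of 30 autophagy and lysosome genes 7 were higher and 0 lower (4 and 1 with median scaling). TSC22D3, a glucocorticoid-induced leucine zipper protein, was between 10.03 and 10.89 against 7.53 to 8.96 (4.14-fold), and FKBP5, a chaperone that is induced by the same receptor and by androgens, fell by 1.19.

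Genes of DNA replication fell together. Of 23 origin licensing genes 16 were lower and 0 higher, 15 of them without overlap, with a median change of -1.21, and of 29 replication fork genes 25 were lower and 1 higher, with a median of -0.81. MCM10, which helps to activate the helicase, read 6.74 and 8.04 in nucARRB1 and 7.61 and 8.77 in wtARRB1 arrays, against 10.39, 10.38 and 10.35 in GFP and 9.89, 10.15 and 10.02 in parental arrays. The controls lay within a narrow range and the ARRB1 arrays spread further, yet none overlapped, and MCM10 fell by 2.41 (SE 0.213, adjusted p = 1.18e-06, limma). CDC45 had a like spread, at 7.34 and 9.03 in nucARRB1 and 8.54 and 10.29 in wtARRB1, against 10.79 to 11.29 in controls (-2.29, adjusted p = 3.38e-05). MCM2 was tighter, at 7.58 and 8.27 in nucARRB1 and 7.79 and 8.22 in wtARRB1, against 10.29, 10.35 and 10.28 in GFP and 9.97, 10.09 and 10.07 in parental arrays, and fell by 2.21 with a gap of 1.70. MCM4 was between 7.68 and 8.55 against 9.98 to 10.37 (-2.24). MCM7, whose promoter is shown above, was between 10.35 and 11.15 against 12.38 to 13.01 (-1.99).

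At the fork, FEN1, which removes the ends of lagging strand primers, read 9.02 and 9.68 in nucARRB1 and 9.50 and 9.94 in wtARRB1 arrays, against 12.05, 12.10 and 12.05 in GFP and 11.43, 11.91 and 11.89 in parental arrays (-2.37, adjusted p = 1.12e-08). TIMELESS, a fork protection factor, and RNASEH2A, which cuts RNA from DNA, fell by 1.59 and 1.44. The fork gene that rose was POLD4, the small subunit of polymerase delta (0.41, with overlap, and lost without nucARRB1 replicate 1, wtARRB1 replicate 1, GFP replicate 2 or 3 or parental replicate 2 or 3). TYMS, which makes thymidylate, was between 8.89 and 10.24 against 11.48 to 12.09 (-2.27), and TK1, thymidine kinase, between 8.02 and 10.39 against 11.14 to 11.81 (-2.18). RRM1, a subunit of ribonucleotide reductase, fell by 1.502, and RRM2B, its p53-inducible partner, rose by 0.47 with a gap of 0.032. RRM2B lost its call with parental control only (adjusted p = 0.108, limma). The call was also lost with a fit of 2 means, the group as random block and the mean of its probes. Of the 15 deoxynucleotide supply genes measured, 6 were lower and 1 higher. UHRF1, which maintains DNA methylation behind the fork, read 6.69 and 7.22 in nucARRB1 and 6.97 and 7.90 in wtARRB1 arrays, against 9.94, 9.96 and 9.998 in GFP and 9.46, 9.78 and 9.55 in parental arrays (-2.59, adjusted p = 1.44e-08). H2AX and ASF1B, a histone variant and a histone chaperone, fell by 1.98 and 1.96. Of 22 E2F and G1/S genes 11 were lower and 1 higher, with CDK2, the S phase kinase, at -1.69, CDC25A, its activating phosphatase, at -1.72, E2F2 at -1.89 and E2F5, which acts mostly as a repressor, at 0.81.

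Of 36 mitosis genes 32 were lower and 0 higher, 28 of them without overlap, with a median change of -1.34. The ARRB1 arrays were far from equal here. CDK1 read 8.20 and 9.86 in nucARRB1 and 9.47 and 10.73 in wtARRB1 arrays, against 11.41 to 11.77 in controls (-2.03, SE 0.25, adjusted p = 2.7e-05, limma). CCNA2, the cyclin of S phase and early mitosis, was at 6.67 and 8.33 in nucARRB1 and 8.19 and 9.16 in wtARRB1, against 9.74 to 10.50 (-1.99). MELK, a kinase of dividing cells, was at 7.42 and 9.60 in nucARRB1 and 9.08 and 10.10 in wtARRB1, against 11.09 to 11.50 (-2.21), and CDCA5, which holds sister chromatids together, at 8.13 and 9.79 in nucARRB1 and 9.36 and 10.17 in wtARRB1, against 11.18 to 11.60 (-2.06). The order, with nucARRB1 replicate 1 lowest and wtARRB1 replicate 2 highest of the ARRB1 arrays, was the same for each of these. The mean of the mitosis list minus the control mean was -2.39 in nucARRB1 replicate 1 and -1.02, -1.17 and -0.58 in nucARRB1 replicate 2, wtARRB1 replicate 1 and wtARRB1 replicate 2, and the control arrays ran from -0.19 to 0.22. DLGAP5, a spindle protein, was called (-1.31, adjusted p = 0.000797) with overlap, since wtARRB1 replicate 2, at 9.19, reached parental arrays at 9.12 to 9.40. CDK1, CCNA2, UBE2C, MELK, CDC45, AURKA, AURKB and DLGAP5 lost the call with an intensity trend and robust prior in limma, with adjusted p between 0.0105 and 0.0554. In these bulk samples, fewer dividing cells and less RNA per cell cannot be told apart. The study reports faster growth of nucARRB1 and wtARRB1 cells than of controls, and how that relates to these arrays was not tested.

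**Figure D2:**
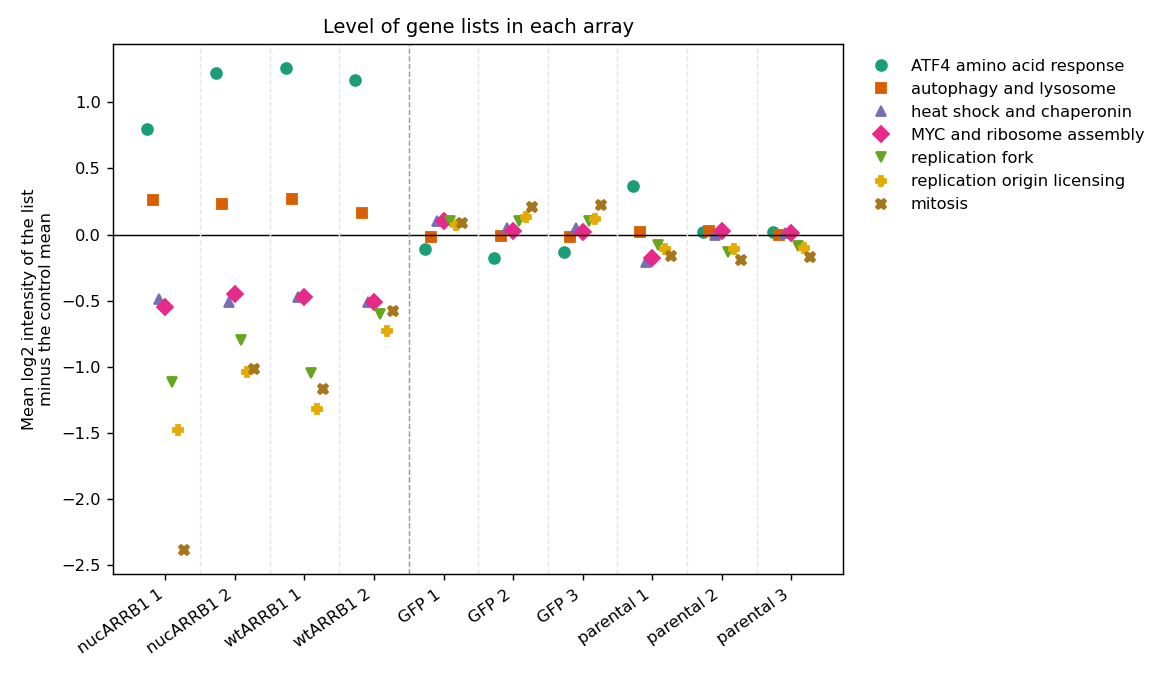
Mean log2 intensity of the genes of 7 lists in each of the 10 arrays, minus the mean of the 2 control groups (y axis), with nucARRB1 and wtARRB1 arrays left of the dashed line and GFP and parental arrays right of it. The mitosis list runs from -2.39 to -0.58 among the ARRB1 arrays, while heat shock and MYC genes stay between -0.55 and -0.45.

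The MYC and heat shock lists, by contrast, lay at nearly 1 level in all ARRB1 arrays. Of 31 MYC and ribosome assembly genes 17 were lower and 0 higher, with a median change of -0.55, and the mean of the list minus the control mean was -0.55, -0.45, -0.47 and -0.51 in the 4 ARRB1 arrays. LYAR, PA2G4 and NOP56, all nucleolar proteins, fell by 1.33, 1.12 and 1.00. Cytosolic ribosomal proteins went the other way, with 14 of 65 higher and 1 lower and a median of 0.16. RPL13A rose by 1.04, RPS23 by 0.87 and RPL32 by 0.82, and RPL29 fell by 0.60, although signals of such genes may include copies of near-identical sequence. Of 23 heat shock and chaperonin genes 14 were lower and 0 higher, with a median of -0.56. DNAJA1, a partner of HSP70, was between 11.55 and 12.02 against 12.40 to 13.09 (-1.08), HSPH1 fell by 1.00 and HSP90AA1 by 0.93. Of 26 proteasome genes 7 were lower and 1 higher, with PSMD2 at -1.09 and PSMC3 at -0.88. TUBB, a β-tubulin, read 11.22 and 11.25 in nucARRB1 and 11.17 and 11.45 in wtARRB1 arrays, against 13.20, 13.22 and 13.34 in GFP and 12.96, 13.06 and 12.999 in parental arrays. It fell by 1.86 (SE 0.0796, adjusted p = 7.63e-10), with a gap of 1.51. Genes often used as standards were not level: of 10 measured, 5 were lower, GAPDH by 0.76 among them, and 1, B2M, was higher by 0.74 with overlap.

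The falls with the widest gaps were those of ID genes. ID1 read 7.86 and 7.56 in nucARRB1 and 7.16 and 7.34 in wtARRB1 arrays, against 10.69, 10.23 and 10.23 in GFP and 9.85, 10.31 and 10.23 in parental arrays. Its arrays were 1.99 log2 units apart and it fell by 2.78 (SE 0.115, adjusted p = 7.19e-10, limma). ID3 read 7.88 and 8.48 in nucARRB1 and 8.38 and 8.49 in wtARRB1 arrays, against 11.32, 10.95 and 10.99 in GFP and 10.58, 10.78 and 10.86 in parental arrays, with the widest gap of all members at 2.08 (-2.60, adjusted p = 8.76e-10). ID2 was between 7.67 and 8.78 against 9.09 to 9.99 (-1.15). Of 20 genes of the ID family and BMP feedback, 7 were lower and 0 higher, but the median of the list was -0.04, with 13 not called. Among 25 CDK inhibitors and p53 targets, 11 were higher and 3 lower (4 and 3 with median scaling). TP53INP1, GADD45A and PMAIP1, which act in stress responses and apoptosis, rose by 0.92, 0.78 and 0.74, and BAX, a mediator of apoptosis, fell by 0.85. GADD45A lost its call with GFP control only (adjusted p = 0.0121, limma) and with median scaling (adjusted p = 0.0224). CDKN2D and CDKN2A, inhibitors of CDK4 and CDK6, were lower by 0.71 and 0.32, but CDKN2A lost its call when any of the 10 arrays was left out (adjusted p up to 0.0351, limma), and CDKN2D lost it with the mean of its probes (adjusted p = 0.0194).

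The study asked about metabolism under the transcription factor HIF1A, and those genes were divided. Among 14 HIF1A targets that the study's text names, 9 were higher and 1 lower, with a median change of 0.77, but that list was chosen on these samples and is no independent evidence of direction. Over a wider list of 44 HIF1A targets, 6 were higher and 15 lower, with a median of -0.14. The mean of this wider list minus the control mean was -0.1 to -0.01 in ARRB1 arrays and 0.28 in parental replicate 1. In the other control arrays it was -0.08 to -0.02. STC2, a secreted glycoprotein, was between 10.87 and 11.39 against 9.17 to 9.71 (1.75, adjusted p = 2.23e-08, limma), and VEGFA, the angiogenic growth factor, between 8.89 and 9.54 against 7.19 to 7.99 (1.75). BNIP3L, a mitophagy receptor, was between 9.88 and 10.18 against 8.21 to 9.53, the highest control being parental replicate 1 (1.38). PPARG, a nuclear receptor, rose by 1.09, SLC2A12, a glucose transporter, by 0.97, VEGFB by 0.92 with overlap, PGM1, phosphoglucomutase, by 0.86, ENO3, the muscle enolase, by 0.66 and MXI1, a MYC antagonist, by 0.42. ALDOA fell by 0.49, but lost its call with GFP control only (adjusted p = 0.0292, limma) and with the mean of its probes. ALDOC, LONP1, BNIP3 and HK2 were not called, at 0.68 (adjusted p = 0.103), 0.55 (0.0399), 0.48 (0.024) and -0.24 (0.0565). Parental replicate 1 was the highest control for ALDOC, at 11.73 against 9.92 to 10.14 in the others, and for BNIP3, at 13.12 against 12.09 to 12.38. Without it both were called (adjusted p = 5.05e-05 and 0.000253, limma). HK2 was called lower with GFP control only (adjusted p = 0.00821, limma), and the change of LONP1 was 0.81 without nucARRB1 replicate 1. MXI1 lost its call without nucARRB1 replicate 1 or wtARRB1 replicate 1 and with median scaling. ENO3 lost its call with parental control only (adjusted p = 0.0393, limma), and VEGFB with the mean of its probes (adjusted p = 0.0548).

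Of 20 glycolytic genes 10 were lower and 2 higher, with a median of -0.51. TPI1, triosephosphate isomerase, was between 12.56 and 13.04 against 13.55 to 13.99 (-1.004, adjusted p = 6.11e-07), PKM, pyruvate kinase, fell by 0.89 and LDHA, lactate dehydrogenase, by 0.79. Of 5 measured enzymes that the study discusses for the mitochondrion, 3 were lower (4 with median scaling) and 1, the cytosolic IDH1, was higher, a list again chosen on these samples. FH, fumarate hydratase, which the study discusses together with SDHA, was not among the genes measured here. SDHA, the flavoprotein of succinate dehydrogenase, was between 8.93 and 9.56 against 9.79 to 10.27 (-0.71, adjusted p = 0.000127). PDHA1 and DLAT, subunits of pyruvate dehydrogenase, fell by 0.66, with overlap, and by 0.57, and their partner DLD was not called (-0.23, adjusted p = 0.151). PDHA1 lost its call when any array other than nucARRB1 replicate 2, GFP replicate 2 and parental replicate 1 was left out. IDH1, an isocitrate dehydrogenase of the cytosol, rose by 0.97 and IDH2, its mitochondrial counterpart, fell by 0.99. Of 29 genes of the tricarboxylic acid (TCA) cycle and pyruvate dehydrogenase 4 were higher and 5 lower (median scaling: 2 and 8), and of 60 oxidative phosphorylation genes 3 were higher and 3 lower (median scaling: 1 and 4). Of 20 genes of cholesterol and fatty acid synthesis 5 were lower and 1 higher (9 and 1 with median scaling), ELOVL6, a fatty acid elongase, falling by 1.08 and SC5D, a sterol desaturase, rising by 1.44. Of 24 androgen response genes 3 were higher and 2 lower, among them TMPRSS2, which lost its call with median scaling. For comparison with the list counts of this paragraph, 6.91% of all genes were called higher and 7.84% lower. Of 27 interferon and MHC class I genes 5 were higher and 1 lower (2 and 1 with median scaling), with ISG20, an exonuclease, between 10.05 and 10.50 against 8.32 to 9.04 (1.72).

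**Figure D3:**
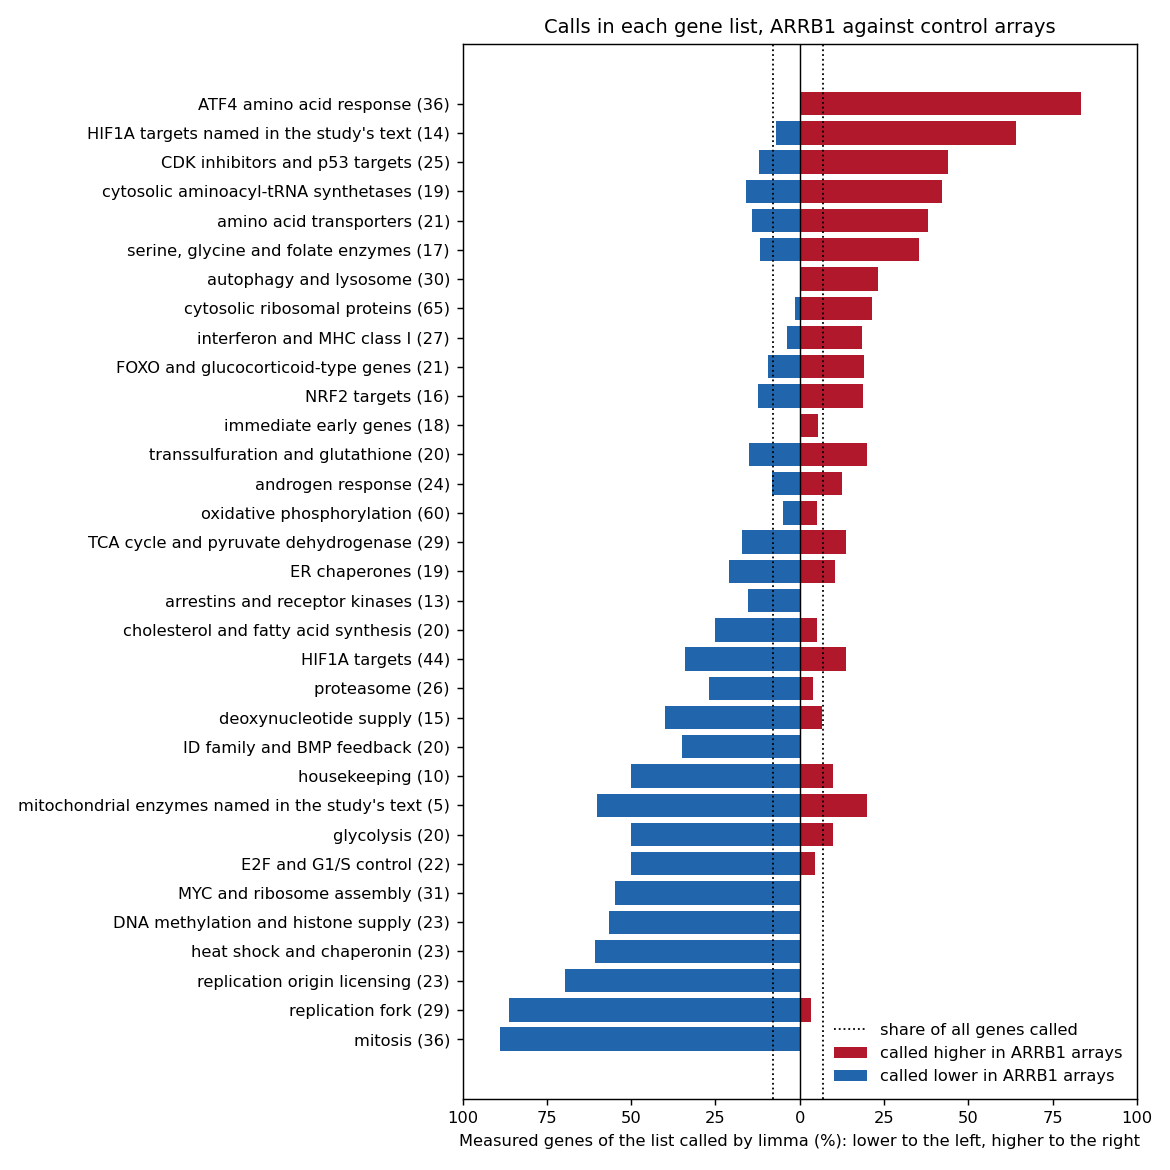
Share of the measured genes of each list (number in brackets) that limma called at a false discovery rate of 1%, lower in ARRB1 arrays to the left and higher to the right, with dotted lines at the shares of all genes (7.84% and 6.91%). The mitosis list, with 32 of 36 lower, and the ATF4 list, with 30 of 36 higher, stand at the ends.

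Whether the members also differed within a pool was asked in the same fit. The requirement of no overlap favours genes whose arrays differ little within a pool, so counts of members called here are descriptions. Between nucARRB1 and wtARRB1, limma called 12 genes (0.0643% of all genes) and 0 of the 2212 members. With 2 arrays a group, differences of over 1 log2 unit, which 21 members had, could miss the threshold. AURKB and AURKA, mitotic kinases, differed by -1.47 (SE 0.371, adjusted p = 0.209, limma) and -1.31 (SE 0.370, adjusted p = 0.293), and TMEM140, a membrane protein, read 7.87 and 8.46 in nucARRB1 against 9.66 and 9.15 in wtARRB1 (-1.24, SE 0.215, adjusted p = 0.0314). SNHG5, a small nucleolar RNA host gene (0.91), STK32A, a kinase (0.84), and ATF3 (0.83) differed most in the other direction. Among lower members nucARRB1 was above wtARRB1 in 35.3%, against 48.8% of all genes, and with nucARRB1 replicate 2 alone in place of both nucARRB1 arrays it was above in 51.6%. Without nucARRB1 replicate 2 the count of genes called was 244, and without wtARRB1 replicate 2 it was 3. Each member moved the same way in all 4 comparisons of an ARRB1 group with a control group, as its choice requires. In nucARRB1 against GFP 679 higher and 903 lower members were called, in nucARRB1 against parental 488 and 614, in wtARRB1 against GFP 614 and 763, and in wtARRB1 against parental 393 and 419. These comparisons share groups and use the arrays on which the members were chosen, so calls among members are favoured. The counts are descriptions, and shares over all genes are not given beside them.

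Between GFP and parental, 9 genes (0.0482%) were called and 2 of them were members, SNHG5 and the antisense RNA ILRUN-AS1. SNHG5 read 11.37 and 11.74 in nucARRB1 and 10.65 and 10.64 in wtARRB1 arrays, against 8.75, 9.09 and 9.06 in GFP and 9.80, 10.07 and 10.11 in parental arrays, so that GFP was 1.03 below parental (adjusted p = 0.00352, limma) and each group had a range of its own. This contrast shares its arrays with the pooled one, so the next shares are given as a description, with no test. GFP was above parental in 81.4% of lower and 27.4% of higher members, against 50.8% of all genes, so that parental cells more often lay on the ARRB1 side of GFP cells. Without parental replicate 1 the shares were 72.5%, 38.9% and 50.6%. The larger such differences were in DDIT4 (-1.58), GDF15 (-1.29) and TSC22D3 (-1.03) among higher members, and PRSS1 (0.78), E2F2 (0.79) and USP1, a deubiquitinase of DNA repair (0.71), went the other way. None of these 6 passed the threshold. PHLDA1, which overlapped, had the largest change of the genes called with overlap, at 6.45 to 7.71 in ARRB1 arrays, 7.05 to 8.03 in GFP and 9.13 to 9.34 in parental arrays. It fell by 1.47 (adjusted p = 2.38e-05), but only the parental arrays were clear of the ARRB1 arrays, and with GFP alone as control it lost the call.

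**Figure D4:**
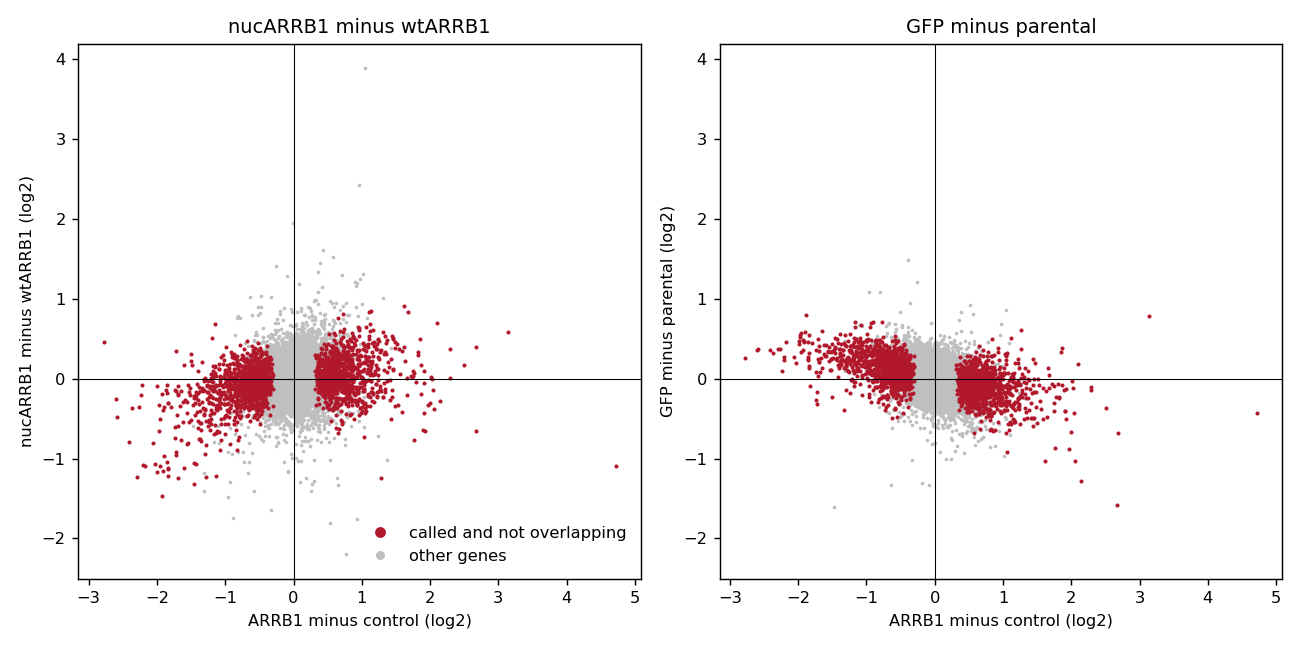
Difference within a pool (y axes, log2 units), nucARRB1 minus wtARRB1 on the left and GFP minus parental on the right, against the ARRB1 minus control change (x axes, log2 units), 1 point per gene for 18664 genes, members in red. On the left 0 members pass limma's threshold for the y axis, and on the right 2 do (SNHG5 and ILRUN-AS1). Both axes of a panel use some of the same arrays.

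At the edge of the rule stood ACSL1, an acyl-CoA synthetase, whose lowest ARRB1 array and highest control array were 0.000381 log2 units apart, and ISOC2, a mitochondrial protein, with 0.000509. ISOC2 lost its call without nucARRB1 replicate 1, either wtARRB1 array, GFP replicate 1, GFP replicate 2 or parental replicate 3 (adjusted p up to 0.0316, limma), and ACSL1 lost it with median scaling (adjusted p = 0.0505). Just outside it, RPS15A, a ribosomal protein, and C6orf52 had an ARRB1 and a control array of equal value, and the call of RPS15A ended without nucARRB1 replicate 1, wtARRB1 replicate 1, parental replicate 2 or parental replicate 3. COX7B2, a cytochrome oxidase subunit, was called higher (1.43, adjusted p = 0.00147, limma) but overlapped, because parental replicate 1, at 10.30, lay above wtARRB1 replicate 1, at 9.84, while the other controls ran from 8.11 to 9.08. The call of COX7B2 ended without wtARRB1 replicate 2.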

How the data were processed

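Total RNA of 10 C4-2 cell samples was amplified, labelled with biotin and read on Illumina BeadChips. The authors pre-processed the arrays with beadarray and deposited log2 values per probe with and without quantile normalisation, and how they corrected the background is not given in the sources used here. The normalised log2 values were used as deposited, and all 48801 probes were tested. A single symbol was given to 27576 probes, several to 13 and none to 21212, and the brightest probe on average stood for a gene. Detection above background was not tested.

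Groups came from the sample labels. The 4 group means were fitted in limma 3.58.1 (R 4.3.3, 6 residual and 9.94 prior degrees of freedom). Tests were two-sided, with Benjamini-Hochberg adjustment over all probes. The script was tested on simulated data. Members and the 38 gene lists were chosen with earlier results of these data known. Genes named are ARRB1, the 12 largest rises and falls, the 5 widest gaps each way, the 4 largest calls that overlap, the genes at the edge of the rule, the genes of the study's text, up to 3 higher and 3 lower calls per list, and the 3 largest differences within each pool in each direction. Marker genes, promoter genes and genes with opposite probes were named after their values were seen. Alternatives tried were limma's own quantile normalisation, median scaling, a fit of 2 means, the group as random block, a replicate block, another variance prior, a filter on dim probes, the mean of a gene's probes, a false discovery rate of 5%, each control alone and leaving out each array.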

Additional observations from a re-analysis of the deposited data

Results flagged for a closer look

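Among the 32 genes with the largest changes, the widest gaps or the largest overlapping changes, the ARRB1 arrays and the control arrays were each examined for a single array far from the rest, which gave 64 groups, and 6 held one. Chance marks about 1 in 20 such groups. Of the 6, 4 were parental replicate 1. In that array S100P was at 10.87, against 6.62 to 7.83 in the other controls, and SERPINA3 was at 7.33, against 6.10 to 6.48. FEN1 was at 11.43 there, against 11.89 to 12.10, and MCM4 at 9.98, against 10.24 to 10.37. Each of these 4 values lay on the side of the ARRB1 arrays. Among the ARRB1 arrays, ARRB1 itself was at 8.30 in nucARRB1 replicate 1, against 7.65 to 7.72 in the others, and CCPG1 was at 9.59 in wtARRB1 replicate 2, against 9.75 to 9.77.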

How the results depend on the processing

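No gene among the 164 examined singly changed direction under any alternative, and of the 159 called, 135 kept the call without any 1 array and 102 kept it under every alternative. The call was lost by 30 with parental control only, 24 with a trend and robust prior, 18 with median scaling, 17 with the replicate block, 15 with a fit of 2 means, 15 with the mean of a gene's probes, 13 with the group as random block, 9 with GFP control only and 1 without dim probes. Median scaling gave 691 genes called higher, 552 higher members, and 3 and 3 genes called between nucARRB1 and wtARRB1 and between GFP and parental. Parental arrays alone as control gave 768 higher and 867 lower, 1635 in all. The mean of a gene's probes gave 6 genes between nucARRB1 and wtARRB1 and 5 between GFP and parental, and leaving out dim probes gave 2 between GFP and parental. Leaving out 1 array gave 3 to 244 genes between nucARRB1 and wtARRB1 (244 without nucARRB1 replicate 2) and 0 to 33 between GFP and parental (33 without either nucARRB1 array, and 0 without GFP replicate 2, GFP replicate 3 or parental replicate 2). It gave 1046 to 1321 genes called higher, 1198 to 1499 lower, 875 to 1130 higher members and 1110 to 1344 lower members. The cause of these shifts was not tested, beyond the fewer arrays that a reduced fit has.

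The labels do not tie a replicate number to a shared culture or day. Deviations of arrays with the same number correlated between -0.0834 and 0.0542 (13 pairs), and with other numbers between -0.0583 and 0.0834 (24 pairs). In groups of 2 arrays the deviations mirror each other, so these values cannot decide whether the numbers pair the arrays. A fit with the replicate block gave 950 genes higher and 1092 lower, with 798 higher and 993 lower members. Arrays have no counting depth, and 2 or 3 arrays a group limit the precision.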
